A study of Homo sapiens with 6 samples.

Results

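Histone methylation and acetylation enzymes were examined in HCT-8 cells, an established human colon cancer line, that carried a short hairpin RNA (shRNA) plasmid. The members were genes whose symbols begin with KMT, KDM, SETD or KAT and a number, SETDB, HDAC and a number or SIRT and a number, with EZH1, EZH2, EED, SUZ12, EHMT1, EHMT2, NSD1, DOT1L, EP300 and CREBBP. Of 14884 genes measured, 68 matched, of which 65 code for proteins and 3 are non-coding RNAs named after a neighbouring enzyme gene. KMT2A, KMT2E, SETD1B, SETDB1, SETDB2, EED, DOT1L, SETD4 and KAT6A were not analysed here, because the annotation used names no feature for them. SETD3 and SETD6 are members by name, and their best-known substrates are not histones.

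The study hybridised total RNA to 6 Affymetrix arrays, of which the labels give 3 as TRIB3-shRNA and 3 as Control-shRNA. The HCT-8 cells, grown in DMEM, had been transfected with a plasmid for the TRIB3 hairpin or the control hairpin, and hygromycin selection began 24 hours later and lasted 14 days. Cells of both groups carried a plasmid, had been through hygromycin and were used as uncloned pools, so a signal is an average over cells with different integrations. The labels do not say whether the replicates were separate cultures, so a p-value here covers only variation among these samples, and that may be technical. Fewer cells with a transcript and less of it per cell cannot be told apart in pooled RNA.

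Chromatin enzymes of this kind add or remove small groups on histone tails. Methyltransferases write lysine methylation that marks active promoters and enhancers (H3K4), transcribed gene bodies (H3K36) or silenced chromatin (H3K9, and H3K27 through Polycomb repressive complex 2, PRC2), and demethylases erase it. Acetyltransferases open chromatin by acetylating lysines, and the zinc-dependent deacetylases (HDACs) and the NAD-dependent sirtuins reverse this. In colon cancer, mutations of KMT2C, KMT2D, EP300 and CREBBP recur, and EZH2 is often abundant in dividing epithelium.

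Array medians over all genes ran from 5.62 to 5.70 on the log2 scale of the deposited signals, and the number of arrays limits the precision. The colon epithelium markers EPCAM and CDX2 had control means of 10.83 and 8.02. Of 9 such markers 2 rose (22.2%, beside 3.25% of all genes) and 0 fell. CDX1 rose by 0.69 and KRT20 by 2.27, and their part in the results below was not tested. VIL1 went the other way, 0.44 lower with groups that did not overlap, but was not called (limma adjusted p = 0.0631). The means of both measured fibroblast markers, DCN and LUM, over the arrays lay below the 25th percentile of every array. So did the means of 2 of 3 leukocyte and 2 of 3 endothelial markers. TRIB3 itself went against the labels. Its signal was 8.43, 8.48 and 8.27 in arrays labelled TRIB3-shRNA, against 7.37, 7.14 and 7.48 in those labelled Control-shRNA. That is 1.07 higher on the log2 scale in the former (SE 0.14, limma adjusted p = 0.0041). Every direction below therefore rests on the deposited labels and compares the arrays labelled TRIB3-shRNA with those labelled Control-shRNA, here called the control arrays.

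Of the 65 enzyme genes, 8 fell, 0 rose and 57 did not reach a Benjamini-Hochberg adjusted p of 0.05 in limma's moderated test over all 14884 genes. The genes that fell were KDM7A, HDAC6, KMT2C, EZH2, KAT2B, KDM1B, KDM4C and EZH1. They made up 12.3% of the enzyme genes, beside 9.64% called in either direction over all genes, of which 6.39% were lower and 3.25% higher. All genes include more dim ones: 3581 of 14884 had a mean below the 25th percentile of every array, against 3 of 65 enzyme genes. With only genes above the 25th percentile of mean signal, 10 of 62 enzyme genes were called, beside 17.1% of all genes kept. Above the 50th percentile 13 of 59 were called, 10 lower and 3 higher, beside 25.8% (16.7% lower, 9.07% higher). The median difference of the enzyme genes was -0.05 and that of all genes 0.04 on the log2 scale. The sign of the enzyme median depended on scaling: it was 0.05 after each array was centred on its 75th percentile, where that of all genes was 0.14. Quantile normalization gave 6 lower enzyme genes and 1 higher, SETD1A (9.16% of all genes called). Centring on the median or on the 75th percentile each gave 7 lower and again SETD1A higher (9.92% and 11.3% of all genes). Over all genes the deposited values gave 484 higher and 951 lower, quantile normalization 543 and 820, centring on the median 659 and 818, and centring on the 75th percentile 853 and 825.

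**Figure D1:**
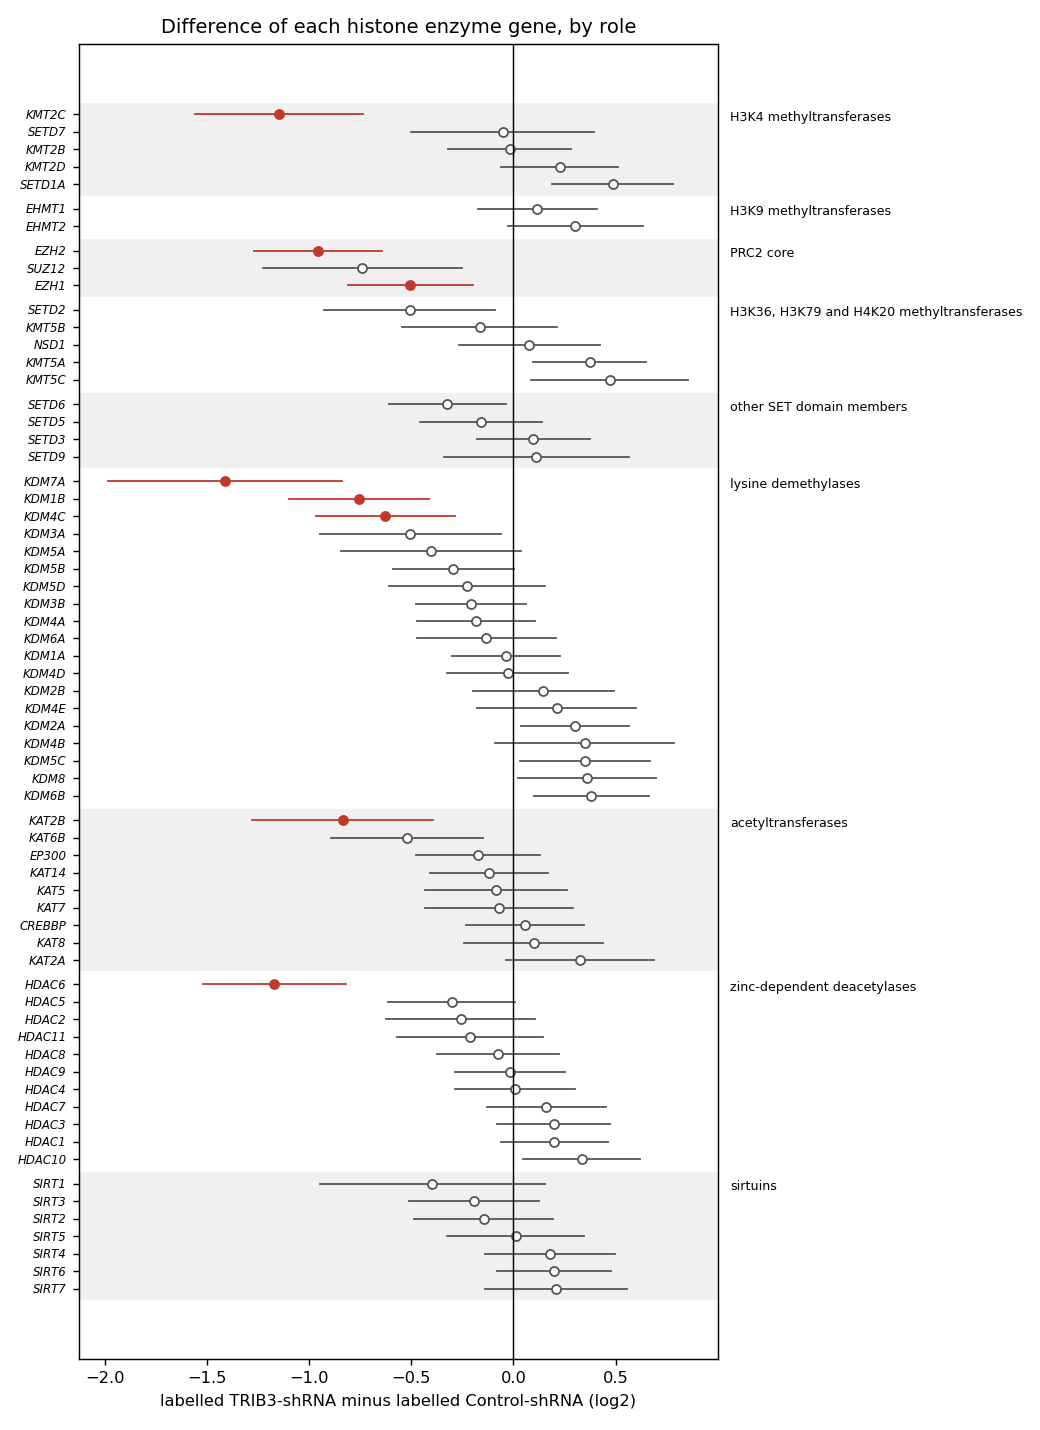
Difference of each of the 65 enzyme genes between the arrays labelled TRIB3-shRNA and those labelled Control-shRNA, on the log2 scale (horizontal axis), grouped by role (bands). Points are limma estimates, lines are 95% confidence intervals, and filled red points passed an adjusted p of 0.05; the 8 filled points all lie below 0.

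The count depended on single arrays. Leaving out TRIB3-shRNA replicate 1 gave 4 enzyme genes and replicate 2 gave 3, and leaving out Control-shRNA replicate 1 gave 3 and replicate 2 gave 2, where the share called over all genes was 3.41%, 2.50%, 1.75% and 1.34% in that order. With array weights it was 22, of which 13 were lower and 9 higher (27.5% of all genes called). HDAC6 and EZH2 were called under all 19 alternative fits.

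HDAC6 and EZH2 are therefore shown first, with KMT2C and KDM7A, which had the other 2 of the 4 largest falls. HDAC6 is a mainly cytoplasmic deacetylase whose best-known substrate is alpha-tubulin. HDAC6 signal was 5.92, 5.50 and 5.94 in arrays labelled TRIB3-shRNA, against 7.01, 6.82 and 7.04 in the control arrays. The groups lay apart, with every control array well above the highest array labelled TRIB3-shRNA. HDAC6 fell by 1.17 log2 units (2.25-fold, SE 0.15, adjusted p = 0.00441).

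EZH2 is the main catalytic subunit of PRC2 in dividing cells. EZH2 signal read 7.80, 7.84 and 8.04 in arrays labelled TRIB3-shRNA, against 9.02, 8.83 and 8.71 in the control arrays. The groups did not overlap, and replicate 3 of each group lay nearest to the other group. EZH2 fell by 0.96 log2 units (1.94-fold, SE 0.14, adjusted p = 0.00637).

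KMT2C, also known as MLL3, is a large enzyme that monomethylates H3K4 at enhancers. KMT2C read 7.81, 8.18 and 8.35 against 9.39, 9.41 and 8.98 in the control arrays. It fell by 1.15 log2 units (2.22-fold, SE 0.18, adjusted p = 0.00931), and lost its call without Control-shRNA replicate 2 (adjusted p = 0.0563). KDM7A, a demethylase of H3K9 and H3K27, read 5.47, 5.88 and 6.49 against 7.54, 7.50 and 7.03. KDM7A fell by 1.41 (SE 0.25, 2.66-fold, adjusted p = 0.0141), the largest fall of an enzyme gene here. Its arrays labelled TRIB3-shRNA were also the most scattered of the 8 genes, with an SD of 0.51. Its call was lost without TRIB3-shRNA replicate 2 (adjusted p = 0.0562), Control-shRNA replicate 1 (0.0671) or Control-shRNA replicate 2 (0.073).

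**Figure D2:**
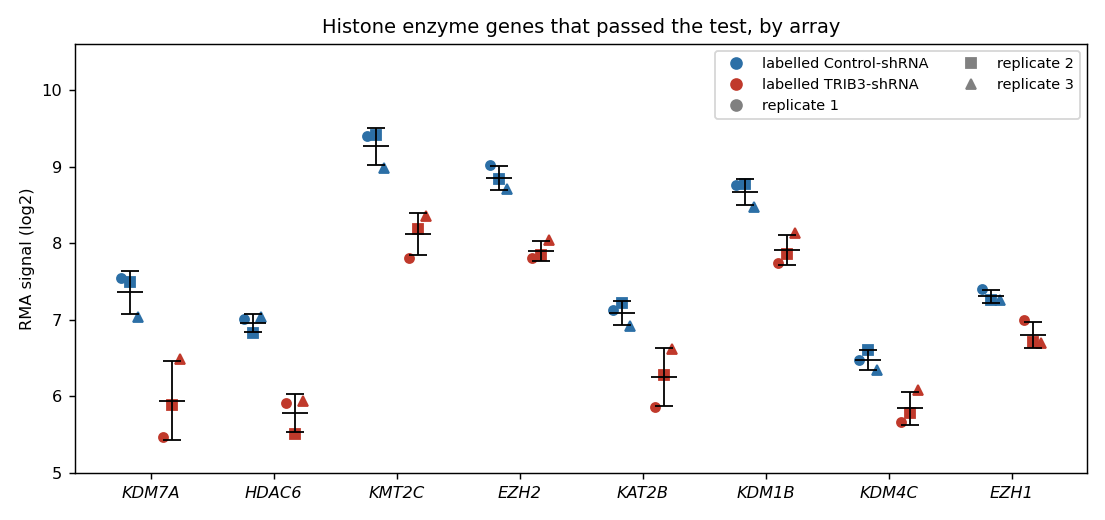
RMA signal on the log2 scale (vertical axis) of the 8 enzyme genes that passed the test, by array. Blue symbols are arrays labelled Control-shRNA, red symbols those labelled TRIB3-shRNA, shapes give the replicate number, and bars are the mean and SD (n = 3); in each gene all red symbols lie below all blue ones.

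The promoter windows of these 4 genes are shown because these genes had the largest falls. Each runs from 250 bases before to 50 bases after the RefSeq start in GRCh38.p14, is read 5′ to 3′ on the gene's strand and has motif matches in capitals. The motifs, searched on both strands, were the GC box (GGGCGG), the CCAAT box (CCAAT), an E2F site (TTTCGCGC or TTTGGCGC), an ETS site (CCGGAAG), the cAMP response element (TGACGTCA), a CHOP-ATF4 composite site (TGATGCAA) and the TATA box (TATAAA).
EZH2, chr7:148884242-148884541, minus strand: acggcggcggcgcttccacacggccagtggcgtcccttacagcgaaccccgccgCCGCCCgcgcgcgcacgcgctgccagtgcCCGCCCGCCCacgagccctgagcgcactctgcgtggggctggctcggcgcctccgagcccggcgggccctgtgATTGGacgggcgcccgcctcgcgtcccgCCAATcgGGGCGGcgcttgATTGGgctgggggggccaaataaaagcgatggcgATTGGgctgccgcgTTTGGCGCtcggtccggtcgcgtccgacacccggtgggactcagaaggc
HDAC6, chrX:48801817-48802116, plus strand: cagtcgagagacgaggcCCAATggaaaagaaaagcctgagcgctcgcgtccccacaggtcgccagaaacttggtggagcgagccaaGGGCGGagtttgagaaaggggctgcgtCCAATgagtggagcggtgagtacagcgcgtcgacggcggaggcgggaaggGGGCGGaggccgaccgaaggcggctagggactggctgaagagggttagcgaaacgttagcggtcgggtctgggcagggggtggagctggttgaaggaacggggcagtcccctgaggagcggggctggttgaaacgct
KMT2C, chr7:152435954-152436253, minus strand: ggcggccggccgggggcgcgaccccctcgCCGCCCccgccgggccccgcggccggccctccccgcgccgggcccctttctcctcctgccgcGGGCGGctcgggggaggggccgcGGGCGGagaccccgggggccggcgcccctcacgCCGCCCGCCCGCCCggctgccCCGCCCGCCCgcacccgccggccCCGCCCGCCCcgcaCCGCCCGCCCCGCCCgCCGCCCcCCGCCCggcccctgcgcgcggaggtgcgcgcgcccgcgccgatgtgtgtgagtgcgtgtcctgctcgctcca
KDM7A, chr7:140176934-140177233, minus strand: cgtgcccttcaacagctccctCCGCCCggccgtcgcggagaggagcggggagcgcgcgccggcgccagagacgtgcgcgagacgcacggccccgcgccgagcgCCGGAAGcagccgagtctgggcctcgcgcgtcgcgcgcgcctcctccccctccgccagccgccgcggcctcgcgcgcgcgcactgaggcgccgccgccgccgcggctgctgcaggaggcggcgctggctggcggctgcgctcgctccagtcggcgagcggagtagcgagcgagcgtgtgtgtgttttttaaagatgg

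The EZH2 window held 1 E2F site, 4 CCAAT boxes and 4 GC boxes. That of HDAC6 held 2 CCAAT boxes and 2 GC boxes, that of KMT2C 15 GC boxes and that of KDM7A 1 GC box and 1 ETS site. Matches of different motifs did not overlap in these windows, while GC boxes overlapped each other in those of EZH2 and KMT2C. Of 65 enzyme genes 61 had a window in the table, of which 68.9% held a GC box, beside 44.6% of all 27305 windows. The E2F letters were in 1 of 61 enzyme windows, that of EZH2, and in 1.18% of all windows. CCAAT was in 34.4% of enzyme windows and 35.7% of all. The ETS letters were in 18.0% of enzyme windows and 10.7% of all. The cAMP response element was in 1.64% of enzyme windows and 1.98% of all. The CHOP-ATF4 and TATA letters were in 0 enzyme windows and in 0.923% and 12.0% of all. Median GC content was 74.7% in the 8 windows of genes that fell, 66.3% in the other 53 and 58.3% over all windows. These matches describe letters only.

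PRC2, which trimethylates H3K27, had 3 measured core genes, 2 of which fell, beside 6.39% of all genes. EZH1, the catalytic paralog found more in resting cells, read 6.996, 6.71 and 6.69 against 7.40, 7.26 and 7.26 in the control arrays. EZH1 fell by 0.50 log2 units (1.42-fold, SE 0.13, adjusted p = 0.0495), just inside the threshold, and was not called under 13 of 19 alternative fits (adjusted p from 0.0109 to 0.186). Its call was lost without any single array, with quantile normalization and with both centrings. SUZ12, the scaffold subunit, read 9.20, 9.38 and 9.97 against 10.37, 10.43 and 9.96. It was 0.74 lower (SE 0.22, adjusted p = 0.0623) and did not pass the test. Its groups overlapped at replicate 3, which had nearly equal signal in both, and it was called lower under 7 of 19 alternatives. Of 18 measured accessory PRC2 and PRC1 genes 0 passed limma's test, beside 9.64% of all genes, and 4 had an unadjusted p under 0.05, beside 28.8% of all genes.

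Of the other methyltransferases, KMT2C alone passed the test, while 9.64% of all genes did. It was 1 of 5 measured H3K4 enzyme genes. Of 2 H3K9 genes, 5 genes for H3K36, H3K79 and H4K20 and 4 other SET domain genes, 0 passed. SETD1A, a catalytic subunit of the H3K4-methylating COMPASS complex, read 7.72, 7.66 and 7.61 against 7.16, 7.03 and 7.34 in the control arrays. Its difference of 0.49 (SE 0.13, adjusted p = 0.0505) lay just outside the threshold, and it was called higher under 12 of 19 alternatives (adjusted p from 0.0106 to 0.193). KMT2D, the closest paralog of KMT2C, was 0.23 higher (95% interval -0.06 to 0.51, adjusted p = 0.275). KMT2D arrays of the 2 groups did not overlap, while those of KMT2B and SETD7 did. SETD2, the main H3K36 trimethylase, was 0.51 lower (adjusted p = 0.111), and NSD1, which dimethylates H3K36, 0.08 higher (adjusted p = 0.775). KMT5A, which monomethylates H4K20, read 7.67, 7.52 and 7.45 against 7.16, 7.17 and 7.19. KMT5A was thus 0.37 higher with separate groups (adjusted p = 0.0845). The H3K9 enzyme gene EHMT2, which encodes G9a, was 0.30 higher (95% interval -0.03 to 0.63, adjusted p = 0.206). SETD6, a monomethylase known for the NF-kappa-B subunit RELA, was 0.32 lower (adjusted p = 0.133).

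Of 19 measured lysine demethylase genes, 3 fell (15.8%, beside 6.39% of all genes): KDM7A, KDM1B and KDM4C. KDM1B, the flavin-dependent H3K4 demethylase also called LSD2, read 7.74, 7.86 and 8.13 against 8.76, 8.77 and 8.47 in the control arrays. KDM1B fell by 0.76 log2 units (1.69-fold, SE 0.15, adjusted p = 0.0204, up to 0.1 over the alternatives). Its paralog KDM1A, or LSD1, read 10.29, 10.38 and 10.41 against 10.40, 10.43 and 10.36. The KDM1A groups overlapped, with a difference of -0.04 (95% interval -0.30 to 0.23), and 0.07 when arrays were centred on their 75th percentile.

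KDM4C, an H3K9 and H3K36 demethylase, read 5.67, 5.78 and 6.09 against 6.48, 6.60 and 6.34. KDM4C fell by 0.63 log2 units (1.54-fold, SE 0.15, adjusted p = 0.0356). KDM1B and KDM4C each lost their calls without TRIB3-shRNA replicate 1 or 2 and without Control-shRNA replicate 1 or 2, and KDM4C also with quantile normalization. Other demethylase genes had separate groups but did not pass the test. KDM6B, or JMJD3, which removes H3K27 methylation, read 7.48, 7.52 and 7.32 against 7.11, 6.98 and 7.09. KDM6B was 0.38 higher (SE 0.12, adjusted p = 0.0832), while its paralog KDM6A, or UTX, was 0.13 lower (95% interval -0.47 to 0.21). KDM2A (0.30), KDM5C (0.35) and KDM8 (0.36) were higher, and KDM5B (-0.30) and KDM3B (-0.21) lower, with adjusted p from 0.128 to 0.278. The means of KDM4E, KDM5D and HDAC9 over the arrays lay below the 25th percentile of every array, so their values say little about a difference.

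Of 9 measured acetyltransferase genes, KAT2B alone passed the test (11.1%, beside 9.64% of all genes). KAT2B encodes PCAF, a coactivator of the GCN5 family, and read 5.86, 6.28 and 6.62 against 7.13, 7.22 and 6.92 in the control arrays. KAT2B fell by 0.83 log2 units (1.78-fold, SE 0.20, adjusted p = 0.0335). The call was lost without TRIB3-shRNA replicate 1 (adjusted p = 0.0805) or 2 (0.0968) and without Control-shRNA replicate 1 (0.118) or 2 (0.137). KAT2B also lost its call with the replicate number as a block (limma adjusted p = 0.0739). Its paralog KAT2A, or GCN5, read 9.04, 8.97 and 8.77 against 8.45, 8.46 and 8.90. The KAT2A groups overlapped through replicate 3 of the control, with a difference of 0.32 (95% interval -0.04 to 0.69, adjusted p = 0.219). KAT6B, the catalytic subunit of MORF complexes, was 0.52 lower with separate groups (adjusted p = 0.0766). EP300 and CREBBP, the paired coactivators p300 and CBP, differed by -0.17 (95% interval -0.48 to 0.13) and 0.06 (-0.23 to 0.35). KAT5, or TIP60, differed by -0.08 (95% interval -0.43 to 0.26), which turned to 0.0021 with quantile normalization.

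Among the 11 HDAC genes, HDAC6 alone passed the test (9.09%, beside 9.64% of all genes). HDAC1, a nuclear subunit of the Sin3, NuRD and CoREST complexes, read 9.63, 9.61 and 9.62 against 9.44, 9.44 and 9.37 in the control arrays. Its groups did not overlap, yet the difference was 0.20 (SE 0.12, adjusted p = 0.285). HDAC3, the deacetylase of the NCoR complex, was also 0.20 higher (adjusted p = 0.318), and HDAC10 was 0.33 higher (adjusted p = 0.121), both with separate groups. HDAC5, a class IIa member, was 0.30 lower (adjusted p = 0.185). HDAC2, the paralog of HDAC1, was 0.26 lower (adjusted p = 0.319) on its brighter feature. Its dimmer feature, 0.43 higher, lay below the 25th percentile of every array, so that value and the mean of both features (0.09 higher) say little about HDAC2.

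Of the 7 sirtuin genes, 0 passed limma's test, and 0 had an unadjusted p under 0.05 (28.8% of all genes). SIRT1, the nuclear deacetylase best known for acting on p53, read 7.25, 7.58 and 8.19 against 8.20, 8.27 and 7.74. It was 0.40 lower (95% interval -0.95 to 0.15, adjusted p = 0.312), and replicate 3 of the TRIB3-shRNA arrays lay above replicate 3 of the control. SIRT1 was called lower with both arrays numbered 3 left out (0.82 lower, adjusted p = 0.0208), an alternative chosen after seeing the data. SIRT6, which deacetylates H3K9 and H3K56, was 0.20 higher with separate groups (adjusted p = 0.315).

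Paralogs were set against each other within each array in 8 pairs, with an exact two-sided permutation test over the arrays. The design cannot give a p below 0.1, and all 8 pairs had that value before and after adjustment over the pairs. In each pair the groups did not overlap, which was also so for 32.0% of all single genes. The share among other gene pairs was not tested, so these p-values cannot show whether paralogs part unusually often. KMT2C, KAT2B, KDM1B, EZH2 and KDM4C, each first in its pair, were already called lower in these same arrays. The sign and separation of their pairs partly follow from those calls. The log2 difference of KMT2C less that of KMT2D was -1.37, and that of KAT2B less KAT2A was -1.16, the largest of the 8. The value was -0.72 for KDM1B less KDM1A, -0.46 for HDAC2 less HDAC1, -0.45 for EZH2 less EZH1 and -0.44 for KDM4C less KDM4A. It was smallest for EP300 less CREBBP (-0.23) and EHMT2 less EHMT1 (0.19).

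Over the 65 enzyme genes, the arrays of the groups did not overlap for 25, 11 higher and 14 lower. That is 38.5% (16.9% higher, 21.5% lower), beside 32.0% of all genes (16.4% higher, 15.6% lower). The 8 genes that fell did not move alike in every array. Their median deviation from the gene mean was -0.56, -0.47 and -0.25 in arrays labelled TRIB3-shRNA, and the control arrays deviated by 0.56, 0.47 and 0.27. Both arrays numbered 3 lay closest to the middle. HDAC6 and EZH1 departed from this pattern, since their control replicate 3 read 7.04 and 7.26, no lower than control replicate 2.

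Enzyme genes are long, and genomic length moved with the result. The 65 genes spanned a median of 46.9 kb and all genes 20.7 kb. The 8 that fell spanned a median of 84.6 kb and ranged from 23.6 kb (HDAC6) to 455 kb (KDM4C). Of the 32 enzyme genes longer than the median, 6 fell (18.8%), beside 12.5% of all genes above that length. Of the 33 others, HDAC6 and EZH1 fell (6.06%), beside 3.74% of all genes up to that length. With each array's trend on length removed, 7 of the 8 kept their calls, EZH1 did not, and KDM2A and SETD1A were called higher (9.10% of all genes called). The median of the enzyme genes was then 0.01 and that of all genes 0.02. The part of gene length in the other differences was not tested.

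**Figure D3:**
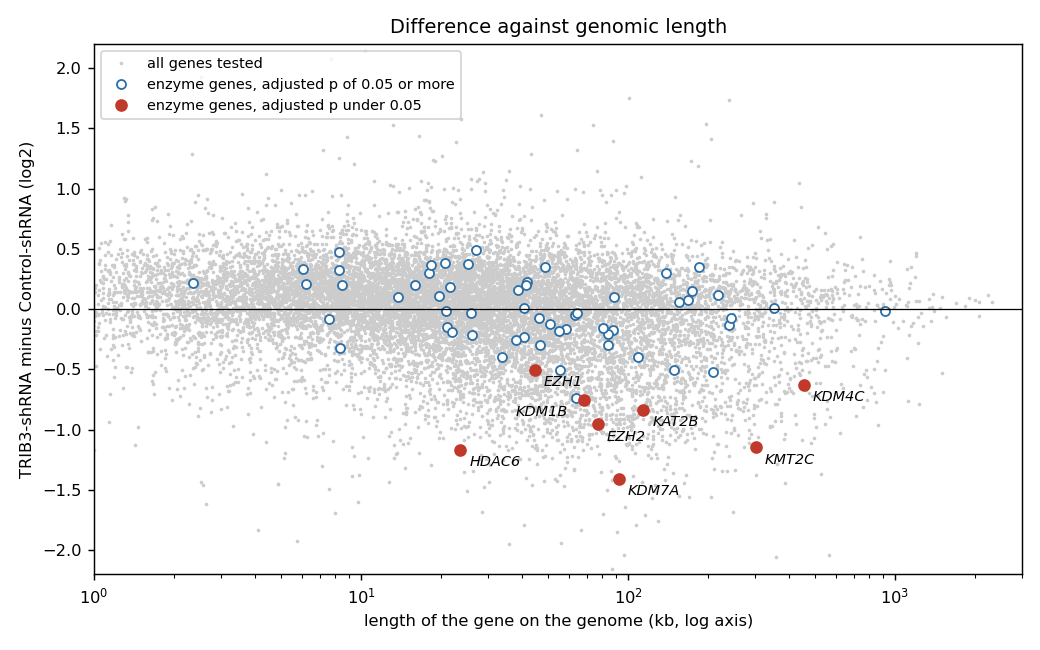
Difference between the groups on the log2 scale (vertical axis) against genomic gene length (horizontal log axis, kb). Grey dots are all genes tested within the range drawn, open circles the 57 enzyme genes that did not pass the test and red points the 8 that did; 7 of the red points lie at 44.8 kb or above and HDAC6 at 23.6 kb.

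Position also moved with the result. EZH2, KMT2C and KDM7A lie in a run of 371 genes of chromosome 7, found in these same data, whose median difference was -0.26 and of which 34.8% fell. All 3 enzyme genes of the run fell, as did 11, 8 and 10 of the 20 nearest measured genes around EZH2, KMT2C and KDM7A. Of those neighbours 0, 0 and 2 rose. Over all genes 6.39% fell and 3.25% rose. The neighbours of HDAC6 on chromosome X had a median of 0.15, and of 20 0 fell and 1 rose. For EZH1, KAT2B, KDM1B and KDM4C the neighbours' medians lay between -0.09 and 0.11. Of the 20 around each, 0, 4, 2 and 2 fell and 1, 1, 1 and 0 rose. Outside the run, 5 of 62 enzyme genes fell (8.06%), beside 5.66% of all genes outside it. The 2 non-coding members of the run had separate groups but did not pass the test: KDM7A-DT, transcribed divergently from KDM7A, at -0.48 (adjusted p = 0.0735) and KMT2E-AS1 at -0.19 (adjusted p = 0.326). KDM4A-AS1, on chromosome 1, differed by 0.15 (adjusted p = 0.468).

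**Figure D4:**
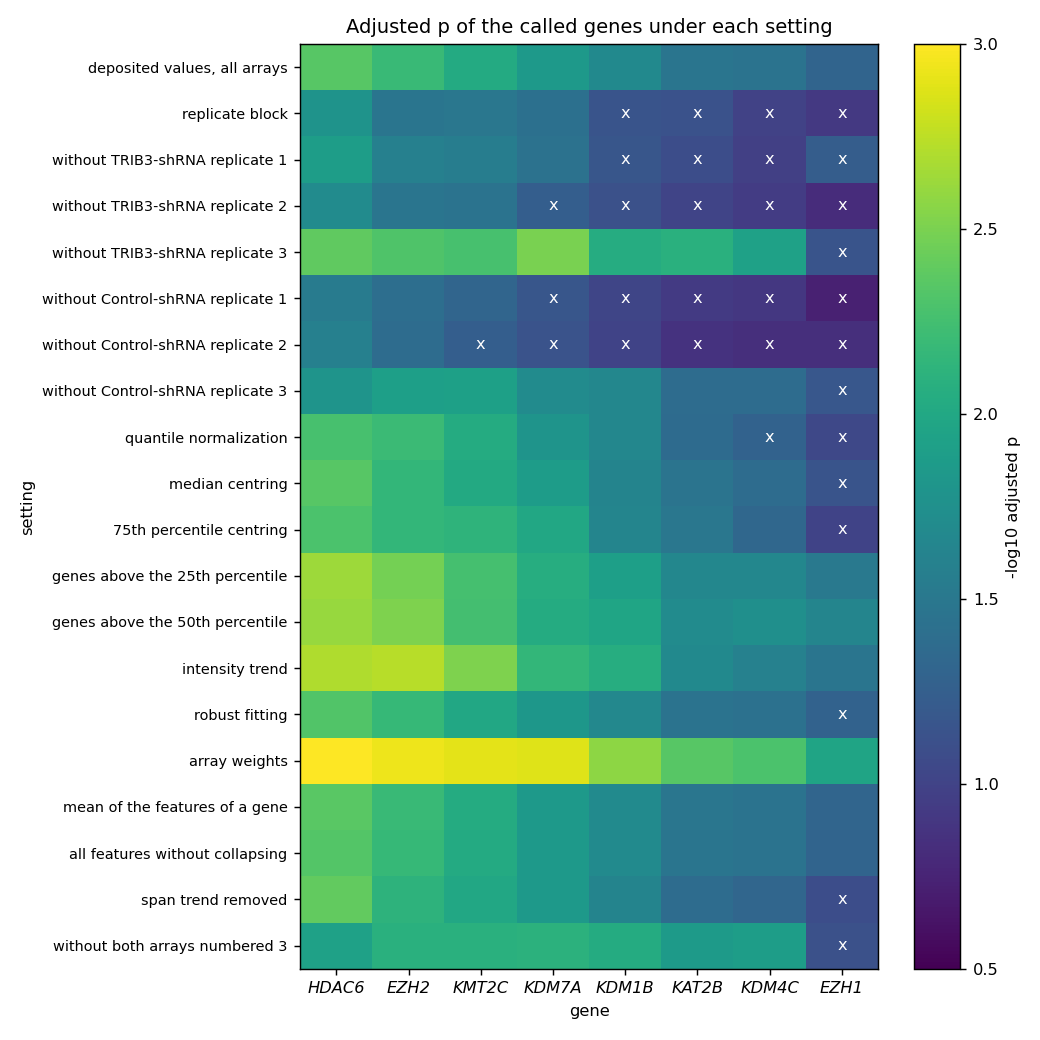
Adjusted p of the 8 enzyme genes that passed the test (columns) under the deposited values and each of 19 alternative fits (rows), as a colour on the -log10 scale. A white x marks an adjusted p of 0.05 or more; HDAC6 and EZH2 have none, and EZH1 has 13.

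The enzymes act in complexes, and 7 lists of partners and related genes held 123 measured genes. Of these 14 fell and 5 rose, and the other 104 missed the threshold (15.4% called, beside 9.64% of all genes). The median difference was -0.0021. The largest rise was that of RCOR2, a CoREST scaffold that joins KDM1A to HDAC1 and HDAC2. RCOR2 read 7.22, 7.11 and 6.93 against 5.52, 5.68 and 5.74, a rise of 1.44 (SE 0.13, 2.71-fold, adjusted p = 0.00123). It was called under all 19 alternatives. Of the other deacetylase complex genes, PHF21A, the CoREST reader of unmethylated H3K4, fell by 0.73 log2 units (adjusted p = 0.0156), and MIER1 fell by 0.99 (adjusted p = 0.0375). In all, 2 of 19 in that list rose and 2 fell (21.1% called, beside 9.64% of all genes).

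Of 12 cofactors of the H3K4 enzymes, 1 fell and 1 rose (16.7% called, beside 9.64% of all genes). PAXIP1, a partner of KMT2C and KMT2D, fell by 0.96 log2 units (adjusted p = 0.0138), and HCFC1 rose by 0.60 (adjusted p = 0.0269). Of 26 subunits of acetyltransferase complexes 3 fell and 1 rose (15.4% called, beside 9.64% of all genes). SUPT3H, of the SAGA complex that holds KAT2A or KAT2B, fell by 0.89 (adjusted p = 0.0108), and the scaffold TRRAP fell by 0.65 (adjusted p = 0.0184). JADE2, of the KAT7 complex, rose by 0.91 (adjusted p = 0.0118). PAXIP1 and TRRAP lie in the chromosome 7 run.

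Of 26 histone writers and erasers that the symbol rule leaves out, 5 fell and 1 rose (23.1% called, beside 9.64% of all genes). NCOA2, a steroid receptor coactivator, fell by 0.97 log2 units (adjusted p = 0.00551), and the methyltransferase gene SMYD3 by 0.81 (adjusted p = 0.0107). RIOX1, a JmjC hydroxylase, rose by 0.94 (adjusted p = 0.0081). NCOA2 and RIOX1 kept their calls under all 19 alternatives. Of 15 bromodomain and methyl-lysine readers 2 fell and 0 rose (13.3% called, beside 9.64% of all genes). These were BRWD3 (-1.29, adjusted p = 0.0117) and BPTF (-0.78, adjusted p = 0.0381). BPTF lost its call with the trend on length removed and without replicate 1 or 2 of either group (adjusted p up to 0.142 over the alternatives). The calls of PHF21A, MIER1, HCFC1 and TRRAP were each lost under 5 of 19 alternatives (adjusted p up to 0.145), among them leaving out replicate 1 or 2 of either group. PAXIP1, SUPT3H and BRWD3 lost theirs without Control-shRNA replicate 1 or 2. SMYD3 lost its call without Control-shRNA replicate 1 and with the replicate number as a block. JADE2 lost its call without Control-shRNA replicate 1 or 2 or without TRIB3-shRNA replicate 2.

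**Figure D5:**
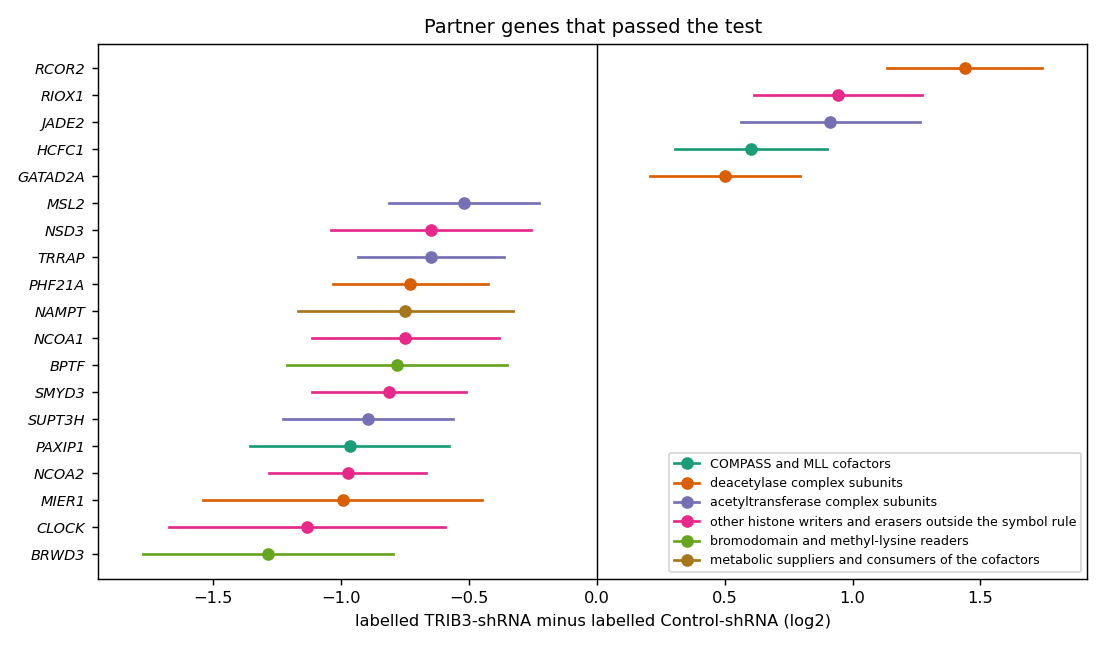
Difference between the groups on the log2 scale (horizontal axis) of the 19 partner and related genes that passed the test, coloured by list. Points are limma estimates and lines 95% confidence intervals; 14 genes lie below 0 and 5 above, with RCOR2 highest at 1.44.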

How the data were processed

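The submitters' processing notes name RMA in Affymetrix Expression Console 1.4.1, and the authors deposited log2 signals of 53617 features. The genome build behind the array annotation is not given in these sources. A single gene symbol was paired with 16098 features, several with 0 and none with 37519; all 16098 matched RefSeq (GRCh38.p14), which supplied gene lengths, gene order and promoter windows. The brightest feature of each gene was kept, giving 14884 genes. No pair of arrays shared more than 0.127% of values.

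The groups, taken from titles, were tested two-sided in R 4.3.3 with the lmFit and eBayes steps of limma 3.58.1, with no covariate or renormalization, and genes called at a Benjamini-Hochberg adjusted p of 0.05 over all genes. Figures and promoter searches used Python 3.11.15. The steps were tested on simulated data of 14884 genes for this comparison: of 200 changed genes, 0% of changes of 0.5, 62% of 1 and 95% of 2 (log2) were recovered. In the data 1435 genes were called, far more than the 200 changed in the simulation. The simulated shares therefore need not hold for the data, where EZH1 was called at -0.50. Members, gene lists and alternatives were chosen with earlier results of these data known. Genes named were all called members, a fixed set of members, up to 3 called genes of each partner list with the smallest adjusted p, and, chosen after values were seen, members whose groups did not overlap and KDM4A-AS1. Same-numbered arrays did not deviate together (correlations of -0.20, -0.09 and -0.43), so the replicate number was no block. Between differently numbered arrays of the groups the correlations ran from -0.23 to 0.33. The fit with group as its only term does not model such shared deviations. The 19 alternatives were that block, each array left out, quantile normalization, 2 centrings, 2 filters on dim genes, an intensity trend, robust fitting, array weights, 2 ways of treating several features, a lowess trend on gene length removed and both arrays numbered 3 left out.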

Additional observations from a re-analysis of the deposited data

How the results depend on the processing

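Of 23 called genes followed under 19 alternatives, TRIB3, HDAC6, EZH2, RCOR2, NCOA2 and RIOX1 kept their calls throughout, and the other 17 lost them under at least 1, and 0 changed sign. The count of 8 enzyme genes was 4 with the replicate number as a replicate block (402 over all genes, where all arrays without the block gave 1435, and 7 partner genes, where they gave 19); same-numbered arrays did not pair, so this is no paired result. It was 2 to 11 when 1 array was left out (199 to 2696 of all genes, 3 to 37 partner genes), 22 with array weights (4099 of all genes, 54 partner genes), 13 of 59 with only genes above the 50th percentile (25.8% of all genes called, 34 partner genes), 3 at an adjusted p of 0.01 (228 of all genes) and 5 without the chromosome 7 members, a setting chosen after seeing the data. Without both arrays numbered 3, also chosen after seeing the data, it was 17 (3392 of all genes, 49 partner genes). Partner genes numbered 30 above the 25th percentile and 29 with an intensity trend, where 17.1% and 13.1% of all genes were called. The enzyme median of -0.05 was 0.00092 with quantile normalization, 0.0019 and 0.051 with centring on the median and 75th percentile, 0.011 with the length trend removed, -0.077 above the 50th percentile, and -0.060 to -0.026 when 1 array was left out. Of genes that were not called, 5 changed sign: NSD1 (-0.041 to 0.17 when 1 array was left out, -0.11 without both arrays numbered 3), KDM1A (0.020 and 0.069 with centring on the median and 75th percentile, 0.080 with the length trend removed), KAT5 (-0.23 to 0.0012 when 1 array was left out, 0.0021 with quantile normalization, 0.020 with centring on the 75th percentile, 0.011 without both arrays numbered 3), CREBBP (-0.036 without both arrays numbered 3) and HDAC2 (0.087 with the mean of its features). The cause was not tested. The steps inside RMA were not varied, and the arrays' signal over background was not analysed here.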

Other observations

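Of 7 measured genes that make or use the cofactors of these enzymes, NAMPT alone passed the test (14.3%, beside 9.64% of all genes). NAMPT, the rate-limiting enzyme of NAD salvage on which sirtuins draw, read 8.56, 8.64 and 9.21 in arrays labelled TRIB3-shRNA, against 9.55, 9.70 and 9.41 in the control arrays. NAMPT fell by 0.75 on the log2 scale (SE 0.19, limma adjusted p = 0.0399), and its RefSeq position lies in the chromosome 7 run. However, the number of the feature kept for it falls between those of the chromosome 10 genes EPC1 and JMJD1C. Where that feature maps was not tested. NAMPT was not called under 6 of 19 alternative fits, whose adjusted p reached 0.155. Among them were leaving out replicate 1 or 2 of either group and taking the mean of the gene's features. ACLY, which makes acetyl-CoA from citrate, differed by 0.18 with groups that did not overlap (adjusted p = 0.326), and AHCY, which clears the product of methyltransferases, by 0.18 (adjusted p = 0.409).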
